A study of Stylophora pistillata with 6 samples.

Results

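FOS (Spis18079), EGR1B (Spis4141) and SIK1 (Spis17316) are 3 coral gene models that carry the names of immediate early genes, and they were followed here through 3 day and 3 night libraries of the reef coral Stylophora pistillata. They were picked by ID out of the 25769 gene models of the count table, with their names taken from the study's own list of genes that differed between the groups, and were known beforehand to stand higher in day samples. The difference between day and night is therefore given for them as a description, with no test. Each name is that of a similar protein in another animal, from carp for FOS, the frog Xenopus for EGR1B and mouse for SIK1.

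Immediate early genes are switched on within minutes of a stimulus, without new protein synthesis, and their products then change the activity of later genes. In vertebrates FOS pairs with JUN proteins to form AP-1, a factor that binds DNA through a basic region and holds together through a leucine zipper. EGR1 is a zinc finger factor that is induced by growth factors, by depolarisation and, in the brain and retina, by light. SIK1 is a salt-inducible kinase of the AMPK family whose gene is induced through cAMP and CREB, and the kinase restrains that pathway by keeping CRTC coactivators out of the nucleus. In mice it also dampens the response of the brain clock to light. None of these roles was measured here.

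All libraries came from apex tissue of microcolonies cut from the branches of syngenic parent colonies and left to recover for 10 days, untreated except for the light cycle, with no genotype or age named. All were kept at 25 °C and a salinity of 38 under 12 h of dark and 12 h of light at 175 µmol photons (per square metre each second). The 3 day samples were frozen with 1 h of light left and the 3 night samples with 1 h of dark left, so they show the end of each phase and not the hour after lights on or off. Branch apex tissue holds many coral cell types together with algal symbionts, and in such bulk RNA more transcript per cell and more cells of a type cannot be told apart. The replicates are not tied to parent colonies, so their spread may be partly technical.

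The 3 transcripts are shown first through the stretch that the study chose for its PCR assay of each, since these are the coral sequences at hand for the 3 genes. They run 5′ to 3′ and the assay for EGR1B is named EGR1. Capitals in the FOS run mark 3 leucine codons spaced 7 codons apart, the spacing of a leucine zipper, in the 1 reading frame without a stop. Capitals in the SIK1 run mark the codons of 2 motifs that define protein kinases, His-Arg-Asp of the catalytic loop and Asp-Phe-Gly at the start of the activation segment. No motif was searched in the EGR1B run.
FOS: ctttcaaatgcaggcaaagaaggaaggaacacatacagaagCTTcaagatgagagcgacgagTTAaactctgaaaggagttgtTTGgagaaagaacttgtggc
EGR1B: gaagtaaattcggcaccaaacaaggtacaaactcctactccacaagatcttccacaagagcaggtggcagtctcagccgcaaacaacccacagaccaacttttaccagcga
SIK1: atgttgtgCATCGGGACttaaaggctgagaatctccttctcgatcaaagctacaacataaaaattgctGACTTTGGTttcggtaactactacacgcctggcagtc
The runs are 103, 111 and 105 bases long, with a GC content of 42.7%, 48.6% and 43.8%. The FOS and SIK1 stretches thus carry letters typical of a bZIP factor and of a kinase. That each run belongs to the gene model of the same name rests on the name. The study ran these assays on new samples taken at the same times. All 3 genes were higher by day there, by less than in the sequencing. FOS and EGR1 met the study's criteria of direction and fold change, whereas SIK1 fell short of its fold change cut-off. The study then followed the genes that met them in alternating light, continuous light and continuous dark. Its text places neither FOS nor EGR1 among the circadian, light-up or light-down genes, and it does not name the genes it calls flat.

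Between 1552480 and 6619275 reads fell on coral gene models in a day library and between 1916270 and 3062255 in a night library. Levels are given as CPM, read counts scaled to library size with TMM factors, which lay between 0.974 and 1.027. CPM values are not per length, so levels are compared within a gene and not between genes. Intervals in brackets are exact 95% Poisson intervals of the read count and cover counting error only. Where an ID is itself the beginning of longer IDs, its deposited value included the reads of those IDs, which were subtracted. None of the 3 members has a longer ID (0 of 3), so their own reads stand as deposited.

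FOS had 113, 139 and 446 reads in day replicates 1, 2 and 3. That is 40.4 CPM (33.3 to 48.6), 89.1 CPM (74.9 to 105.2) and 65.6 CPM (59.7 to 72.0). In night replicates 1, 2 and 3 it had 33, 19 and 30 reads, or 10.7, 9.92 and 11.8 CPM. The night libraries were close together and their intervals overlapped, whereas the 3 day intervals were separate from one another, with replicate 1 lowest and replicate 2 highest. The mean of FOS was 65.0 ± 24.3 CPM in day samples and 10.8 ± 0.917 CPM in night samples (± SD, n = 3 in each), a 6.03-fold difference. Its lowest day library stood 3.44 times above its highest night library. The log2 fold change fitted by edgeR was 2.57 (standard error 0.27).

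EGR1B had 467, 527 and 1739 reads by day, or 167 CPM (152 to 183), 338 CPM (309.5 to 368) and 256 CPM (244 to 268). By night it had 93, 87 and 117 reads, or 30.1, 45.4 and 45.8 CPM. As for FOS, day replicate 1 was lowest, day replicate 2 highest, and the 3 day intervals did not overlap. The mean of EGR1B was 254 ± 85.4 CPM in day samples and 40.5 ± 8.97 CPM in night samples (± SD, n = 3 in each), a 6.27-fold difference. The fitted log2 fold change was 2.65 (standard error 0.25). Among the night libraries replicate 1 was lowest for EGR1B, at 74.4% of the night mean, a place it did not hold for FOS, at 99.1%.

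SIK1 had 511, 310 and 1758 reads by day, or 183 CPM (167 to 199), 199 CPM (177 to 222) and 259 CPM (247 to 271). By night it had 151, 92 and 144 reads, or 48.9, 48.0 and 56.4 CPM. Replicate 3 was the highest in both groups, and the intervals of day replicates 1 and 2 overlapped, so these 2 libraries were not separable at this depth. The mean of SIK1 was 213 ± 40.0 CPM in day samples and 51.1 ± 4.6 CPM in night samples (± SD, n = 3 in each), a 4.18-fold difference. The fitted log2 fold change was 2.06 (standard error 0.20).

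In all 3 genes every day library lay above every night library, a pattern that 5.8% of the 14262 gene models with at least 10 reads in each library also showed. By an adjusted p of 0.05 in edgeR's quasi-likelihood test, 0.256% of the 24180 gene models with a read were called higher by day. Both shares are background, since the 3 were chosen on this contrast. The deepest library (day replicate 3) was 4.26 times as deep as the shallowest (day replicate 2). FOS and EGR1B were highest in the shallowest day library and lowest in the one of middle depth. In libraries thinned to equal depth the log2 fold changes were 2.66 for FOS, 2.68 for EGR1B and 2.12 for SIK1. The order of the day libraries was not redone on thinned reads, so the part of depth in that order was not tested.

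**Figure D1:**
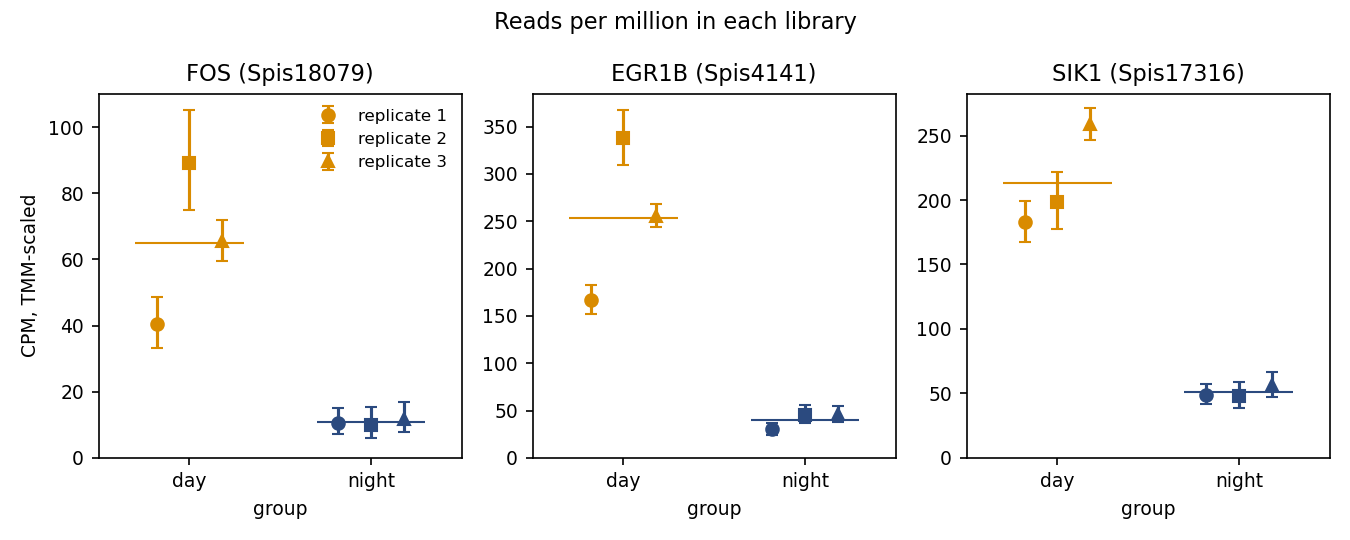
CPM of FOS, EGR1B and SIK1 in each library (y axis, linear from 0) for day and night (x axis). Points are libraries by replicate, bars exact 95% Poisson intervals and lines the group means: day replicate 1 is the lowest day point in all 3 panels, with its bar overlapping that of replicate 2 for SIK1, and FOS and EGR1B share the order of the day points while SIK1 has replicate 3 on top.

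Gene models with neighbouring numbers were looked at beside the members. Around EGR1B, Spis4140 stood at 59.3 ± 12.4 CPM in day samples and 60.0 ± 8.04 CPM in night samples (± SD, n = 3 in each), and Spis4142 at 33.6 ± 11.9 and 31.3 ± 3.76 CPM. Around SIK1, Spis17315 stood at 52.7 ± 7.92 and 52.7 ± 3.77 CPM. In these 3 the day and night libraries overlapped. Spis17317, on the other side of SIK1, had 6, 4 and 9 reads by day and 1, 2 and 2 by night, so that its day libraries also lay above its night ones in CPM, on 24 reads in all. Around FOS, Spis18080 and Spis18078 had 99 and 17 reads in all, with overlapping groups. None of the 6 passed edgeR's test (adjusted p = 1.0 for each), and the 3 with few reads could hide a change at this depth. Whether numbers follow the order of genes along the genome was not checked here.

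Whether the 3 genes varied together among the day libraries was asked next. FOS and EGR1B did so closely. Their highest day library stood above the lowest by 2.20-fold for FOS and 2.02-fold for EGR1B, with the same order of the libraries. SIK1 spanned 1.42-fold in another order. Without day replicate 1 the span was 1.36-fold for FOS and 1.32-fold for EGR1B, with replicate 2 still above replicate 3 in both. The median gene model spanned 1.41-fold, so SIK1 was ordinary in this respect. A wider span than that of FOS was found for 7.85% of gene models, than that of EGR1B for 11.2% and than that of SIK1 for 49.6%. Among gene models within 2-fold of the same mean level, the shares were 6.05%, 5.89% and 34.6%.

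By night FOS lay within 1.18-fold, EGR1B within 1.52-fold and SIK1 within 1.17-fold, against 1.37-fold for the median gene model. Among gene models within 2-fold of the same mean level, 77.6%, 16.7% and 71.7% had a wider night span. For FOS the coefficient of variation was 37.4% by day and 8.5% by night, for EGR1B 33.7% and 22.2%, and for SIK1 18.7% and 8.99%. All 3 therefore had the larger relative spread by day, with 3 libraries a group and no test of the difference. These values include counting error, which was not taken out, and FOS had only 19 to 33 reads in a night library. The biological coefficient of variation that edgeR estimated was 0.232 for FOS, 0.227 for EGR1B and 0.174 for SIK1, beside 0.202, 0.189 and 0.188 for gene models of their level.

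**Figure D2:**
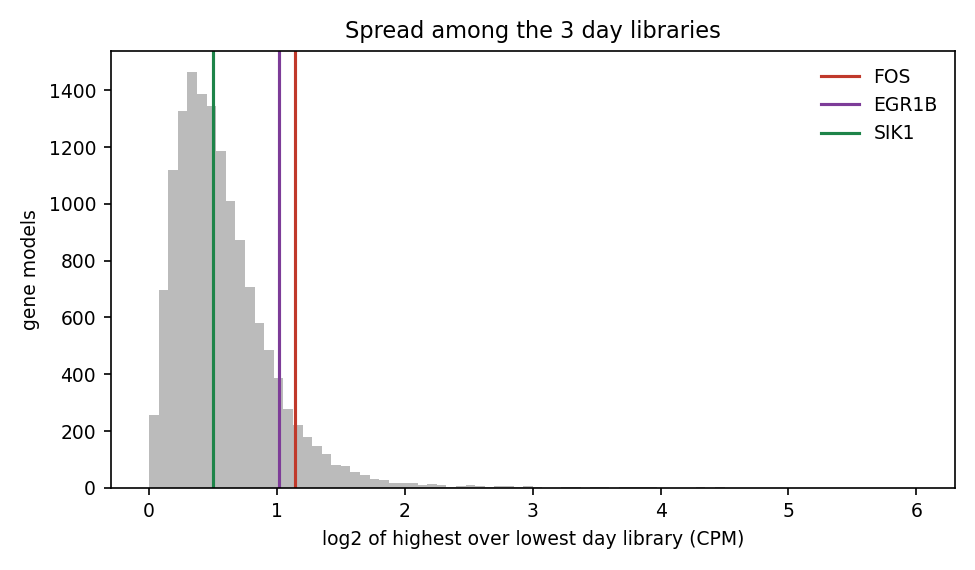
Number of gene models (y axis) by the log2 of the highest over the lowest day library in CPM (x axis), for the 14262 gene models with at least 10 reads in each library. Vertical lines mark FOS, EGR1B and SIK1: SIK1 lies at the middle of the histogram, FOS and EGR1B in its right tail.

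Ratios of reads within a library do not depend on scaling. FOS reads per EGR1B read were 0.242 in day replicate 1 (exact binomial interval 0.195 to 0.298), 0.264 in replicate 2 (0.217 to 0.319) and 0.257 in replicate 3 (0.231 to 0.285). The 3 values lay within 1.09-fold of one another although the levels of both genes spanned 2.02-fold or more. By night the ratios were 0.355 (0.231 to 0.533), 0.218 (0.126 to 0.362) and 0.256 (0.166 to 0.386), wider but on 19 to 33 FOS reads. The mean ratio was 0.254 ± 0.0111 (SD, n = 3) by day and 0.277 ± 0.0704 (SD, n = 3) by night, so the proportion of FOS to EGR1B differed between the groups by less than the spread of the night libraries. Of the 14260 other gene models, 45 (0.316%) held a narrower ratio to EGR1B over the day libraries than FOS did, and the median gene model spanned 2.14-fold. By night 41.3% held a narrower one. Each day interval was wider than the 1.09-fold span, so the share of 0.316% may overstate how closely FOS and EGR1B kept together.

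SIK1 departed from this pair in 1 day library. SIK1 reads per EGR1B read were 1.09 (0.963 to 1.24) and 1.01 (0.946 to 1.08) in day replicates 1 and 3 but 0.588 (0.51 to 0.678) in replicate 2, the library where FOS and EGR1B peaked. By night the ratios were 1.62, 1.06 and 1.23. A narrower ratio to EGR1B than that of SIK1 was held by 30.1% of other gene models by day and 31.9% by night, so its span was ordinary in both groups. FOS reads per SIK1 read showed the same library standing apart, at 0.448 (0.364 to 0.549) in day replicate 2 against 0.221 (0.179 to 0.272) and 0.254 (0.228 to 0.282) in replicates 1 and 3. By night that ratio was nearly constant, at 0.219, 0.207 and 0.208, and 2.12% of other gene models held a narrower ratio to SIK1, against 79.6% by day. By night FOS per SIK1 lay within 1.06-fold and FOS per EGR1B within 1.63-fold, the reverse of the day libraries. On few FOS reads the night intervals of each ratio overlapped, so this reversal is not separable from counting error. In day replicates 1 and 3 the intervals of FOS per SIK1 overlapped those of all 3 night libraries. In day replicate 2 the interval of that ratio lay above them. Day replicate 2 is also the shallowest library, and the part of depth in this difference was not tested beyond the counting intervals.

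**Figure D3:**
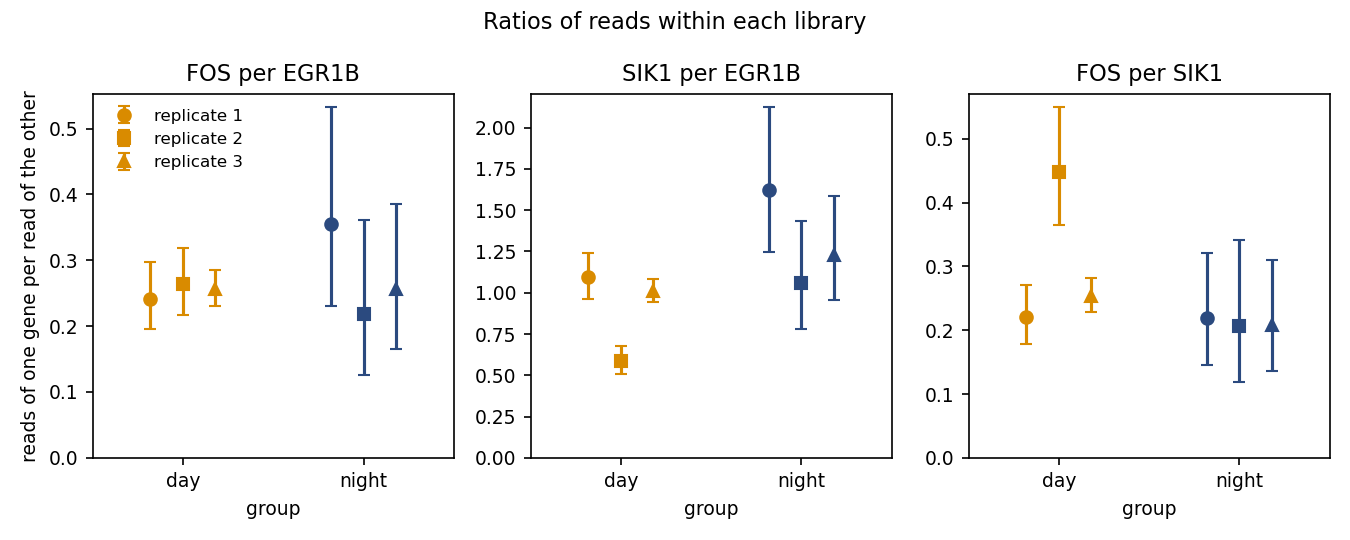
Reads of one gene per read of the other within each library (y axis, linear from 0) for day and night (x axis), with exact 95% binomial intervals as bars and a marker for each replicate. FOS per EGR1B is level over the day libraries, and day replicate 2 is low for SIK1 per EGR1B and high for FOS per SIK1.

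Once each group's mean was taken away, the log2 CPM of FOS and EGR1B deviated together over the 6 libraries (Pearson r = 0.83). Of the other gene models, 4.54% had a higher r with FOS and 4.65% with EGR1B. For SIK1 the r was 0.365 with EGR1B and 0.39 with FOS, values that 25.7% to 32.7% of gene models exceeded. These are descriptions over 6 libraries with 2 means removed. They lean on day replicate 1, the lowest day library of FOS and EGR1B and, within counting error of replicate 2, of SIK1. Without it the r of FOS and EGR1B was 0.50, that of SIK1 and EGR1B -0.21 and that of FOS and SIK1 -0.50. Day replicate 1 was the lowest day library for 30.8% of all gene models and for 10 of 48 other gene models on the study's list with a positive log2 fold change in edgeR, and the order shared by FOS and EGR1B was held by 15.1% of all gene models and 5 of these 48. Of the 68 listed gene models with a negative log2 fold change, 25 were lowest in day replicate 1 and 14 had that order. The shares lowest in replicate 1, 20.8% of the 48 and 36.8% of the 68, lay on either side of that of the whole table and were not tested against it.

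Compared with the night library of the same number, FOS stood 3.79, 8.98 and 5.59 times higher in day replicates 1, 2 and 3. For EGR1B the values were 5.55, 7.43 and 5.58, and for SIK1 3.74, 4.13 and 4.59. Replicate 2 thus gave the largest ratio for FOS and EGR1B and replicate 3 for SIK1.

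The log2 fold changes of the 3 genes held under each of 16 other settings, including DESeq2, limma-voom, the values as deposited, a replicate block and the loss of any 1 library. They lay between 2.30 and 2.82 for FOS, 2.40 and 2.88 for EGR1B, and 1.90 and 2.17 for SIK1. For FOS and EGR1B both ends of the range came from leaving out a day library, replicate 2 for the lowest value and replicate 1 for the highest.

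**Figure D4:**
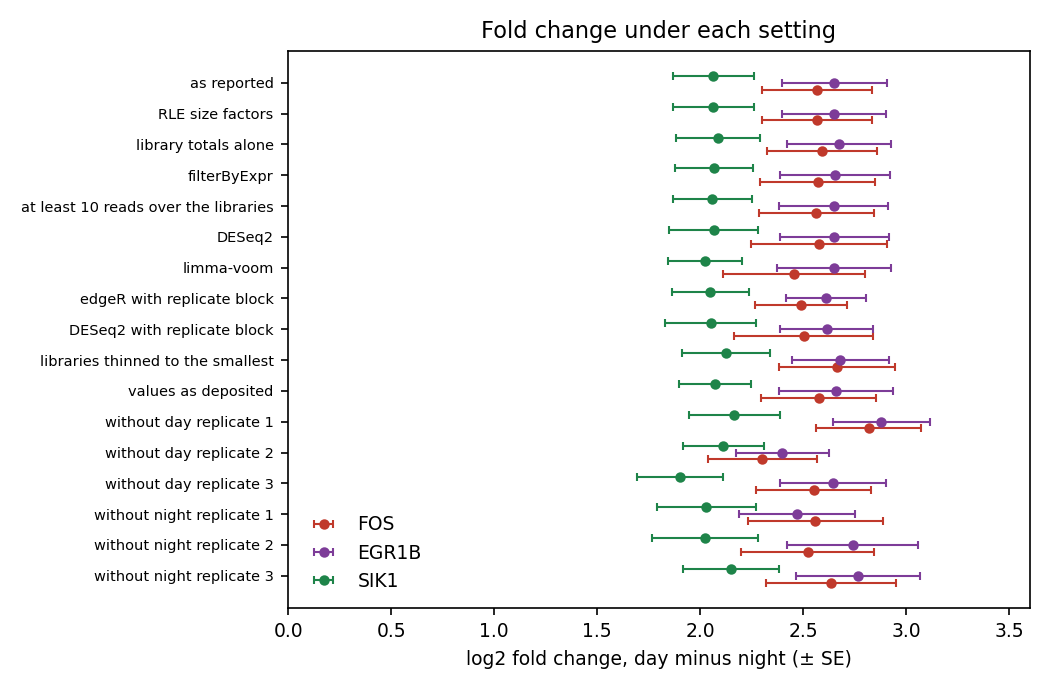
Log2 fold change of day minus night (x axis) for FOS, EGR1B and SIK1 under the reported fit and 16 alternatives (y axis), with standard errors as bars. The points stay between 1.90 and 2.88 throughout.

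Which gene models had the most similar profile was taken from Pearson's r of log2 CPM over the 6 libraries, among gene models with at least 10 reads in each. Since 3 libraries of each kind enter, a high r needs little more than a difference between day and night, and the value says nothing of its size. FOS and EGR1B had an r of 0.99 with each other, and each was the fourth most similar gene model to the other among all. SIK1 ranked 20th for FOS and 18th for EGR1B. The gene model nearest to FOS in the whole table was Spis9572, which carries no name here (r = 0.996), and the next was ZFP26 (Spis11066), a zinc finger protein (r = 0.99). Spis9572 differed far less than FOS, with means of 63.1 and 41.8 CPM. ZFP26 had 123, 169 and 160 CPM in day replicates 1, 2 and 3 and 75.7, 71.5 and 67.7 CPM in the night ones. It shared the order of the day libraries with FOS and EGR1B over a smaller range, though its intervals in replicates 2 and 3 overlapped.

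The gene models nearest to EGR1B were Spis13891, without a name (r = 0.995), and ABHD4 (Spis2930), an abhydrolase (r = 0.99). Of the named genes, ABHD4 and PAX3B (Spis374), a paired box factor, came up for both FOS and EGR1B, and HMCN2 (Spis14495), a hemicentin, for EGR1B. PAX3B had 58.0, 78.8 and 71.8 CPM by day and 9.06, 13.1 and 10.6 CPM by night, with day replicate 1 lowest and replicate 2 highest again. Counting intervals were not worked out for PAX3B, so its day libraries are not shown to be separable. SIK1 was nearest to CRY1 (Spis11907.t1), a cryptochrome (r = 0.99), and to COT2 (Spis14503), a nuclear receptor (r = 0.99), followed by ABHD4. This CRY1 had 558.5, 578 and 748 CPM by day and 259, 229 and 247.5 CPM by night, with replicate 3 on top by day as for SIK1.

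The named genes around the 3 were set beside them in 4 lists: other bZIP factors, ETS factors, signalling proteins and growth regulators. The study had picked the genes of all 4 lists from these same libraries, so which way they point is no independent evidence. Over all gene models, edgeR called 0.666% in either direction, 0.256% higher and 0.409% lower by day, and 5.35% had an unadjusted p under 0.05. With the replicate number as a block edgeR called 1.69% (0.864% higher and 0.827% lower). DESeq2 called 0.616% (0.265% higher and 0.352% lower) and, with the block, 0.525% (0.232% higher and 0.294% lower). Limma-voom called 0.461% (0.152% higher and 0.31% lower) of the smaller set of 17122 gene models left by its filter. In 5.38% of gene models with at least 10 reads in each library all day libraries lay below all night libraries.

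FOS belongs to the bZIP class, and the 4 other named bZIP factors did not move as one. Of these, 2 rose by day, 1 fell and 1 did not pass, with a median log2 fold change of 0.93 against 0.0046 over all gene models tested. CREM (Spis4729), a relative of CREB that responds to cAMP, had 76.6, 72.4 and 119 CPM by day and 35.6, 32.9 and 51.3 CPM by night, so that the groups did not overlap and replicate 3 was highest in both. It rose 2.26-fold (1.17 ± 0.22 on the log2 scale, ± SE, adjusted p = 0.0052 from edgeR). It did not pass without night replicate 1 or 2 (adjusted p = 0.079 and 0.089 from edgeR) or with limma-voom (0.088).

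ATF4 (Spis9848), a factor of the integrated stress response, had 805, 1103 and 760 CPM by day and 284.5, 399 and 517 CPM by night. Its adjusted p was 0.017 from edgeR, and it passed in 9 of 16 alternatives (0.25 at most, without night replicate 2). HLF (Spis1683), a PAR-type bZIP factor, had 2, 3 and 8 reads by day and 646, 410 and 436 by night and fell by 7.35 in log2 units (edgeR's adjusted p = 5.9e-17), while the values as deposited, which hold the reads of longer IDs, gave -0.50 and did not pass (0.23). NF2L1 (Spis2715), a regulator of proteasome genes, missed the threshold in edgeR, at a log2 fold change of 0.71 (adjusted p = 0.17). It passed in 3 of 16 alternatives, among them the replicate block in edgeR (0.018) but not in DESeq2 (0.1).

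ETS factors act beside serum response factor on the promoters of FOS and EGR1 in vertebrates, where a subgroup of them is the switch for growth factor signals. Of 4 named ETS factors, 2 rose, 0 fell and 2 did not pass, with a median log2 fold change of 2.01. ETS2 (Spis5906) had 52.6, 48.1 and 52.4 CPM by day and 8.74, 8.36 and 6.66 CPM by night (2.68 ± 0.25 on the log2 scale, ± SE, adjusted p = 1.5e-08 from edgeR). Its day libraries lay within 1.09-fold, so a day-high factor of a similar fold was nearly level in the libraries over which FOS and EGR1B spanned 2.02-fold or more. ETS1B (Spis18634) had 28.3, 38.5 and 33.4 CPM by day, in the order of FOS but with overlapping intervals, and 8.09, 1.04 and 3.92 CPM by night (adjusted p = 0.0016 from edgeR). ETS2 (Spis18633.t1) and SPDEF (Spis6216.t1) did not pass (adjusted p = 0.13 and 0.55) but did with the replicate block (0.0045 and 1.7e-09) and in DESeq2 (0.013 and 0.007). Both had their highest day library in replicate 1, where FOS, EGR1B and SIK1 were lowest, at 952 CPM of a day mean of 742 for ETS2 and 117 CPM of 90.4 for SPDEF. Over the day libraries ETS1B spanned 1.36-fold, ETS2 (Spis18633.t1) 1.69-fold and SPDEF 2.43-fold, the last a wider span than that of FOS.

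Calcium and cyclic nucleotides are the classical signals upstream of FOS, EGR1 and SIK1. Of 5 named signalling proteins, 1 rose and 4 fell by day, with a median log2 fold change of -1.38. KCC2D (Spis10735), a subunit of the calcium and calmodulin kinase CaMKII, had 14.0, 13.5 and 17.2 CPM by day and 23.3, 33.4 and 43.9 CPM by night (adjusted p = 0.026 from edgeR, under 0.05 in 6 of 16 alternatives, 0.24 at most without night replicate 3). PK2L1 (Spis9527), a calcium-permeable channel of the polycystin family, had 5.73, 3.2 and 4.71 CPM by day and 15.2, 21.9 and 9.4 CPM by night (adjusted p = 0.015 from edgeR). PK2L1 did not pass in 5 of 16 alternatives (0.3 at most, without night replicate 2). With the replicate block in DESeq2, KCC2D and PK2L1 did not pass (adjusted p = 0.12 and 0.18). The EF-hand domain-containing protein D1 (Spis5338), which binds calcium, had 267, 155 and 239.5 CPM by day and 605, 526 and 593 CPM by night (edgeR's adjusted p = 0.00061). ANPRA (Spis14052), a natriuretic peptide receptor that makes cGMP, had 3.58, 2.56 and 2.50 CPM by day and 14.9, 14.6 and 13.7 CPM by night (edgeR's adjusted p = 0.00033). Both fell and passed in 16 of 16 alternatives. NPFF2 (Spis10371.t1), named for a neuropeptide receptor coupled to G proteins, rose 2.29-fold (adjusted p = 0.0068 from edgeR). It had 34.4, 50.6 and 39.9 CPM by day, again with replicate 2 highest and replicate 1 lowest, but with overlapping intervals. It did not pass with limma-voom (0.071), without day replicate 2 (0.069) or without night replicate 1 or 2 (0.086 and 0.096).

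The list named growth regulators holds 4 other regulators, although ZFP26 is known here only as a zinc finger protein. Of these 4, 4 rose and 0 fell, with a median log2 fold change of 1.52. ZFP26, whose levels are given above, rose 2.10-fold (edgeR's adjusted p = 0.0013). TOB2 (Spis18899), an antiproliferative protein that recruits mRNA deadenylases, had 173.5, 163 and 184.5 CPM by day and 86.4, 98.7 and 108 CPM by night (edgeR's adjusted p = 0.018). It did not pass with limma-voom (0.059), without day replicate 1 (0.062) or without night replicate 1 (0.22) or 2 (0.2). The HEY gene models Spis21953 and Spis7206, named for repressors downstream of Notch, rose by 3.82 and 1.97 in log2 units (edgeR's adjusted p = 4.2e-12 and 4.8e-06). The first of them spanned 1.14-fold over the day libraries, close to ETS2 (Spis5906) and well under FOS, and the second 1.45-fold. The day libraries of these 4 gene models all lay above the night libraries.

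**Figure D5:**
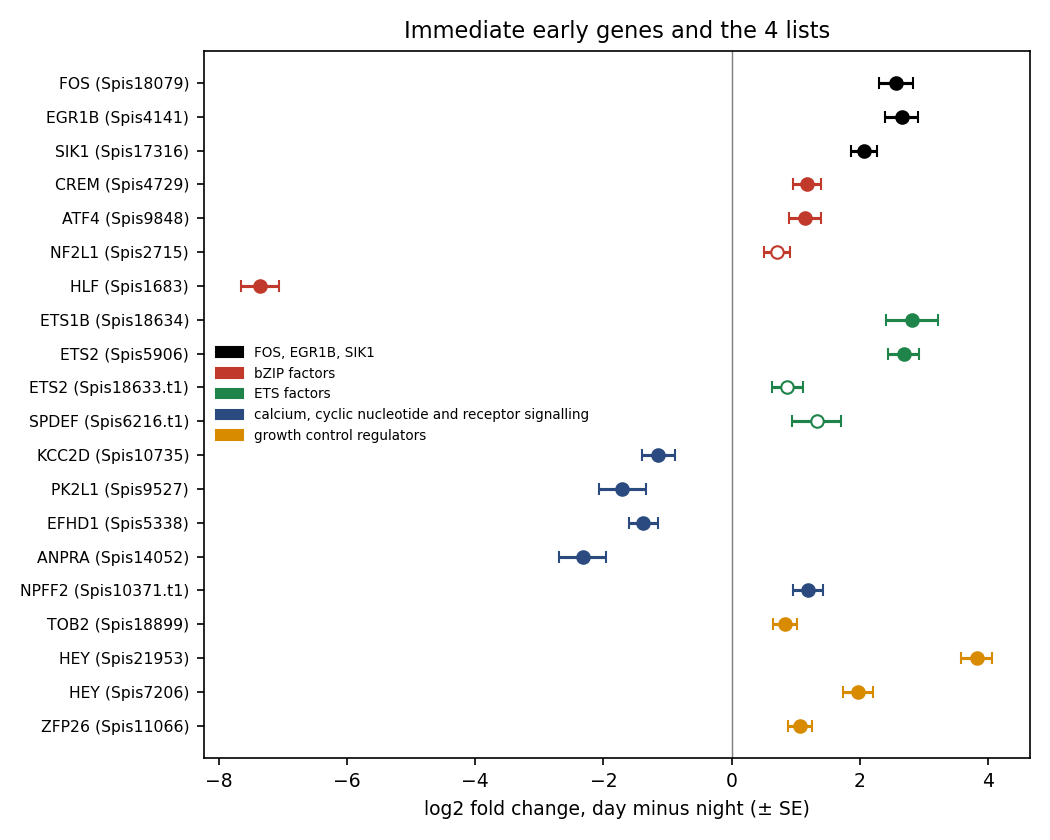
Log2 fold change of day minus night (x axis) with standard errors for FOS, EGR1B, SIK1 and the 17 gene models of the 4 lists (y axis), coloured by list. Open points did not pass an adjusted p of 0.05 in edgeR, and the 3 immediate early genes, shown in black, carry no test. Of the 5 signalling proteins 4 lie left of 0, and 4 of the 4 gene models listed as growth regulators lie right of it.

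Of the 13 gene models of the 4 lists with at least 10 reads in each library, 2 (15.4%) were lowest in day replicate 1 and 2 had the day order of FOS and EGR1B, beside 30.8% and 15.1% of all gene models. Over all 17 gene models of the lists, day replicate 2 was the highest day library in 5 and the lowest in 10. Nothing is read from counts this small. As a check of the tissue, galaxin (Spis11963), a protein of the coral skeleton, was present in each library. It stood at 99.5, 129.5 and 99.5 CPM by day and 62.5, 68.4 and 54.8 CPM by night (edgeR's adjusted p = 0.028), so that replicate 2 was highest by day as for FOS and EGR1B while replicates 1 and 3 were level. It was the 1 such marker checked by name, and its part in the results was not tested. Its name also came from the study's list of differing genes, so its p-value is no independent evidence.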

How the data were processed

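Read counts were deposited for 6 libraries, 3 day and 3 night, as whole numbers per gene model without normalization or pooling. The authors made these counts from poly(A) RNA sequenced on a SOLiD instrument, aligned as single ends in colorspace against coral gene models, 1 longest coding sequence for each, with Bowtie, whose version is 1.2.3 according to the submitters' processing notes. They then used DESeq2. Whether strand was used is not given in the sources used here.

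The reads of longer IDs were subtracted from any ID that begins them, for 2371 gene models (9.2%), which left 0 values below 0, and in 6 of 6 libraries the sum then matched the study's number of mapped reads exactly. No test was run on the 1589 gene models lacking any read. Day and night were compared with edgeR 4.0.16 in R 4.3.3 (TMM, robust quasi-likelihood F test, two-sided, Benjamini-Hochberg over 24180 gene models). DESeq2 1.42.0 and limma 3.58.1 served as alternatives, with RLE factors, library totals, 2 filters, a replicate block, thinning, values as deposited and each library left out. The code was tested on simulated data. A prior count of 0.5 was added for log2 CPM in correlations. Standard errors are the log2 fold change over the square root of F. Figures used Python 3.11.15 and matplotlib 3.10.9.

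Members and lists were chosen with earlier results of these data known. Genes named are the members, the list members, their neighbours by number and, for each member, the 2 gene models of the whole table and the 3 on the study's list of differing genes with the highest r. P-values measure only the spread between these samples, which may be technical. The same replicate numbers deviated together across groups (r = 0.20 to 0.37, against -0.28 to 0.09 for other numbers, over 14262 gene models). Each group's mean was taken away first, so higher values for the same number push the others down. The ranges are thus not independent of each other, and no label says what the numbers share. On the ground of the same-number values, blocked values from edgeR are given where they change the call of a list gene. None of the gene models (0) matched the RefSeq gene table by ID.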

Additional observations from a re-analysis of the deposited data

How the results depend on the processing

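The log2 fold changes of FOS, EGR1B and SIK1 kept their direction under each of the 16 alternatives and moved by less than the SD pooled over day and night samples, though for FOS and SIK1 leaving out a day library moved them by more than the SD of the night samples alone. The count of 161 gene models called between day and night was 79 with limma-voom, 409 with the replicate block in edgeR and 94 to 233 when 1 library was left out (lowest without night replicate 2, and 97 without night replicate 1). The share of calls that were higher by day was 38.5%, 51.1% with the block and 54.9% without day replicate 3. The 3 bZIP factors called were 1 with limma-voom and 1 to 3 without 1 library. The 2 ETS factors called were 4 in DESeq2, with or without the block, and 4 with the replicate block in edgeR. The 5 signalling proteins called were 2 with limma-voom, 3 in the blocked DESeq2 fit, and 2 to 5 without 1 library (2 without day replicate 2 or night replicate 2). The 4 gene models listed as growth regulators stayed within 1.5 times. The cause of these shifts was not tested. The leave-outs of the day spread and of the deviations were chosen after seeing the data. The day span of FOS was 1.36-fold to 2.20-fold, that of EGR1B 1.32-fold to 2.02-fold and that of SIK1 1.09-fold to 1.42-fold (lowest without replicate 3). The r of deviations was 0.50 to 0.98 for FOS and EGR1B, -0.21 to 0.74 for SIK1 and EGR1B, and -0.50 to 0.98 for FOS and SIK1 (reversed without day replicate 1, at -0.2086 and -0.4951). The night ratios with FOS rest on 19 to 33 FOS reads.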
